A study of Caenorhabditis elegans with 24 samples.

Results

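sid-1 (WBGene00004795) encodes a transmembrane protein that lets double-stranded RNA enter cells, and animals without it do not spread RNA interference (RNAi) between tissues. It was followed as 1 of the 46726 features in a table of small RNA counts from whole adult Caenorhabditis elegans. The gene lies on chromosome V from 5119970 to 5126916 on the forward strand (WBcel235, Ensembl release 115), with 7 exons that cover 2653 bp of its 6947 bp span. The values are normalized counts of reads from the strand antisense to sid-1, where small interfering RNAs (siRNAs) against its mRNA are found. The sid-1 mRNA itself was not measured here. The labels do not say how much of the signal came from exons.

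In C. elegans, RNA-dependent RNA polymerases copy a targeted mRNA into antisense siRNAs, which Argonaute proteins then bind. HRDE-1 is the nuclear Argonaute of the germline that carries siRNAs from parent to offspring, and MEG-3 and MEG-4 are disordered proteins that assemble germ granules in the embryo. The comparisons ask how siRNAs against sid-1 differ when germ granules fail to assemble, how long the difference is inherited once the genotype is wild type again, and whether it is present without HRDE-1.

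The 24 libraries formed 12 groups of 2. They were hrde-1; meg-3 meg-4 mutants (strain YY1512, called the triple mutant from here), meg-3 meg-4 mutants (strain JH3225, called meg-3/4), 9 generations of wild-type descendants of outcrossed meg-3/4 animals (5 in a row, F3 to F7, then F10, F15, F20 and F25), and the wild-type control N2. Neither the alleles nor the course of the outcross is given in the labels. Nothing in the labels says whether a later generation was grown from the animals sampled earlier. No hrde-1 single mutant was analysed here. The members of a group are labelled biological replicates, with no more said of separate cultures, so a p-value rests on the spread between these samples, which may be technical. Each sample was a population of whole animals, so fewer germ cells and fewer siRNAs per cell cannot be told apart.

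The labels were checked on the mutated genes. Small RNAs against meg-3 lay between 4.73 and 14.4 normalized counts in the triple mutant, 7.74 and 7.86 in meg-3/4, 46.5 and 84.8 in the descendants, and 42.8 and 64.2 in wild type. Those against hrde-1 measured 599.9 and 628.5 in the triple mutant, against 1115 and 1164 in meg-3/4. Recovered reads per library ran between 392785 in F10 replicate 1 and 3420345 in F6 replicate 2. F4 replicate 2 was the other shallow library, with 395527 reads, and the remaining 22 held at least 1086642. sid-1 held between 917 and 13660 of these reads per library, so counting error alone was 0.856% to 3.30% of its value.

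siRNAs against sid-1 were about an order of magnitude more abundant in meg-3/4 than in wild type. The level was 11889 and 11329 normalized counts in the meg-3/4 replicates, against 1221 and 1245 in the wild-type replicates. Both meg-3/4 libraries lay far above both wild-type libraries, and the group means were 11609 ± 395.6 in meg-3/4 and 1233 ± 17.1 in wild type (SD, n = 2 each). The change was 3.23 on the log2(normalized count + 5) scale used for all tests (SE 0.13, limma adjusted p = 7.80e-13). Of all 8869 features that passed the filter on low values, 25.9% were called in this comparison. Per kilobase of exon the mean level was 4376 normalized counts in meg-3/4 and 464.9 in wild type. By normalized count, sid-1 ranked 11 and 13 of all features in the meg-3/4 libraries, against 157 and 161 in the wild-type libraries.

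Without HRDE-1 the high level was not seen: sid-1 siRNAs in the triple mutant were far below meg-3/4 and could not be told from wild type. Its replicates measured 1333 and 1171 normalized counts, against 11889 and 11329 in meg-3/4. Neither triple mutant library approached meg-3/4, and the wild-type libraries, at 1221 and 1245, fell between the triple mutant's replicates. The mean was 1252 ± 114.6 in the triple mutant (SD, n = 2), and its excess over wild type was 0.177% of the meg-3/4 excess. Against meg-3/4 the triple mutant was lower by a log2 change of -3.21 (SE 0.13, limma adjusted p = 4.68e-13), in a comparison that called 19.2% of features. Against wild type the log2 change was 0.02 (95% interval -0.26 to 0.29, limma adjusted p = 0.954), in a comparison that called 18.2% of features. The upper end of that interval is a level 1.22-fold that of wild type, where the excess would be 2.67% of the meg-3/4 excess. Without triple mutant replicate 2 the upper end was 4.39%.

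**Figure D1:**
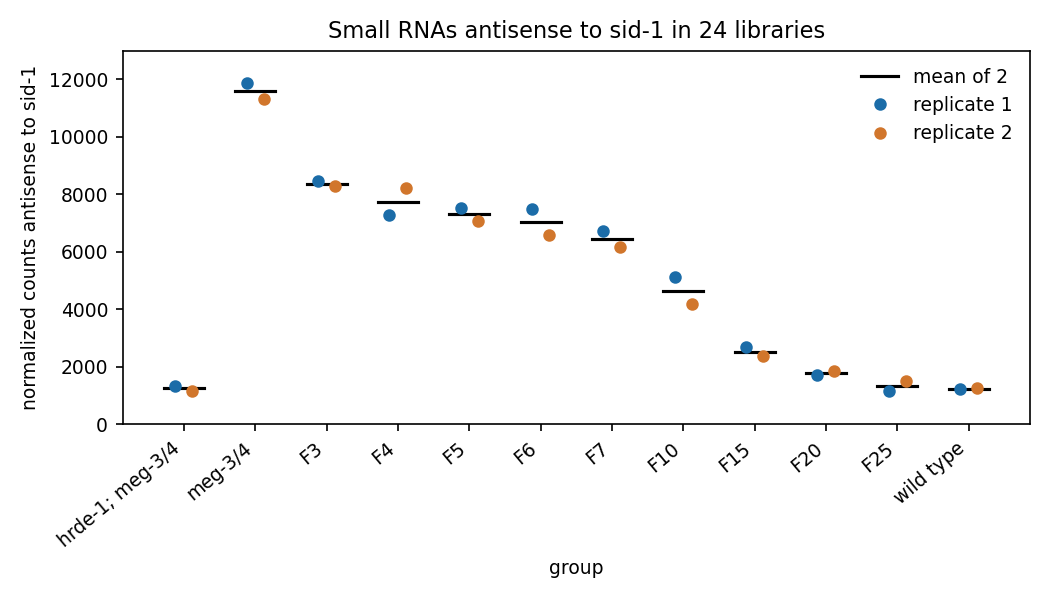
Normalized counts of small RNAs antisense to sid-1 (vertical axis) in each of the 24 libraries, by group (horizontal axis); points are single libraries and bars mark group means of 2. meg-3/4 lies at 11329 and 11889, the descendants step down with generation, and F25 (1145 and 1488) and the triple mutant (1171 and 1333) lie around wild type (1221 and 1245).

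Wild-type descendants of meg-3/4 animals kept high sid-1 siRNA levels for many generations. At F3 the replicates held 8449.7 and 8303 normalized counts, at F4 7273 and 8228, and at F5 7527 and 7082. At F6 they held 7482 and 6588, and at F7 6742 and 6176. All 10 of these libraries were below both meg-3/4 libraries and at least several-fold above both wild-type libraries, although their genotype was wild type. At F10 the replicates held 5107 and 4196, at F15 2676 and 2369, and at F20 1708 and 1834. Every one of these 6 libraries still lay above both wild-type libraries. At F25 the values were 1145 and 1488, 1 library below and 1 above wild type.

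Against wild type the log2 change was 2.76 at F3 (limma adjusted p = 2.46e-11), 2.64 at F4, 2.56 at F5, 2.50 at F6, 2.38 at F7, 1.90 at F10 (adjusted p = 1.45e-08) and 1.03 at F15 (adjusted p = 8.85e-05), each with an SE of 0.13. The share of all features called against wild type was 17.6% at F3, 21.6% at F4, 19.3% at F5, 16.4% at F6, 17.1% at F7, 21.2% at F10, 7.76% at F15, 2.4% at F20 and 1.05% at F25. At F20 the log2 change of sid-1 was 0.52 (SE 0.13, limma adjusted p = 0.0409). That call was lost without any 1 of the F20 or wild-type libraries, with adjusted p between 0.12 and 0.225, and with libraries scaled to equal totals (log2 0.32, adjusted p = 0.236). At F25 the log2 change was 0.08 (95% interval -0.19 to 0.36, limma adjusted p = 0.898). The interval reaches a level 1.28-fold that of wild type, where the excess would be 3.32% of the meg-3/4 excess. Without F25 replicate 1 the log2 change was 0.27 and the upper end 5.79% of the excess, and without F25 replicate 2 they were -0.11 and 1.73%.

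With the deposited scaling, F3, the first sampled generation, stood below the meg-3/4 libraries. The labels do not say whether the sequenced meg-3/4 animals were its ancestors. F3 held 8376 ± 103.9 normalized counts and meg-3/4 11609 ± 395.6 (SD, n = 2 each), a log2 change of -0.47 (SE 0.13, limma adjusted p = 0.0278), where 8.47% of features were called. The groups did not overlap. With equal library totals the call was lost (log2 -0.23, limma adjusted p = 0.425). The call was lost without any 1 of the 4 libraries (adjusted p between 0.0885 and 0.191), and quantile normalization gave a log2 change of 0.15 in the opposite direction.

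The decay was described in 2 ways. As the share of the meg-3/4 excess over wild type, the mean was 68.8% at F3, 62.8% at F4, 58.5% at F5, 55.9% at F6, 50.4% at F7, 32.9% at F10, 12.4% at F15, 5.18% at F20 and 0.800% at F25. The excess thus stood near 50% at F7 and near the wild-type level by F25, where the replicates gave -0.850% and 2.45%. Fitted on a log scale between F3 and F20, the excess lost 50% every 4.45 generations, and every 4.37 and 4.50 generations in the replicate 1 and replicate 2 libraries taken alone. The same wild-type mean was subtracted from both, and with libraries scaled to equal totals they gave 3.39 and 4.13.

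The level itself, with no wild-type value subtracted, fell along F3 to F25 with a log2 slope of -0.130 per generation (SE 0.00421, limma adjusted p = 5.81e-14), where 25% of features had a called slope. This is a loss of 8.62% per generation, or 7.69 generations to lose 50% of the level (95% interval 7.20 to 8.25). The interval covers the spread between replicates, not how well a single rate describes the fall. Between neighbouring sampled generations the loss ran from 3.69% per generation (F5 to F6) to 11.5% (F10 to F15). The level takes longer to lose 50% than the excess does, because no wild-type value is subtracted from it. The loss was 5.99% per generation over F3 to F7 and 9.63% over F7 to F20. The early log2 slope was -0.0892 (SE 0.0293, 95% interval -0.151 to -0.0278, limma adjusted p = 0.144, with 3.16% of features called). The interval lay below 0 (limma unadjusted p = 0.00674), and the early slope missed the threshold only after adjustment over all features. The later slope was -0.146 (SE 0.00935, limma adjusted p = 1.50e-08, with 5.57% called). The later slope minus the early one was -0.0569 (95% interval -0.128 to 0.0143, limma adjusted p = 0.704, with 1.51% called), so the test on the level does not show that the rate differed between the windows. The excess, which was not tested, took 9.35 generations to lose 50% over F3 to F7 and 3.89 over F7 to F20. The replicates taken alone gave 13.7 and 7.05 in the early window and 3.62 and 4.20 in the later one, so both lost the excess more slowly early on. With libraries scaled to equal totals they gave 8.21 and 8.53 early and 2.87 and 3.84 later.

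**Figure D2:**
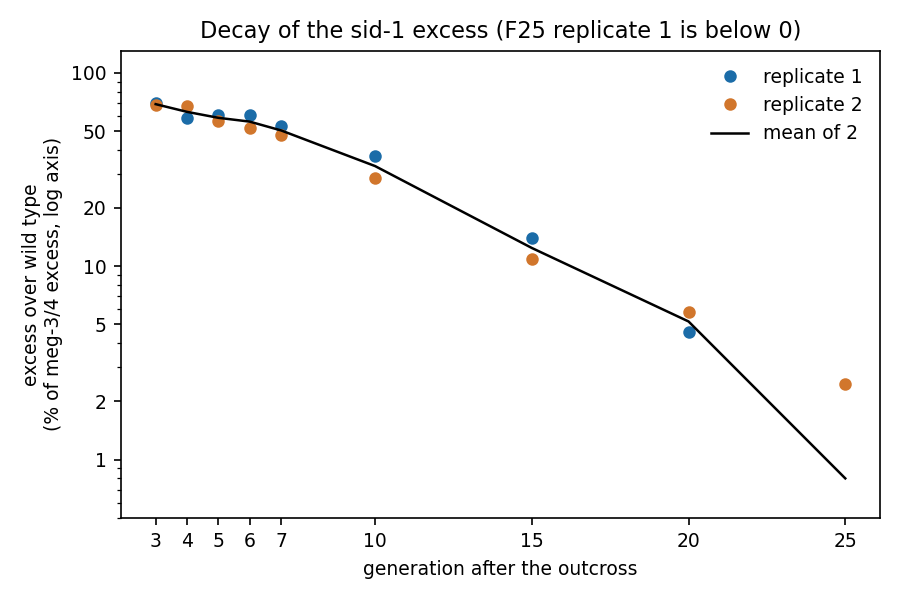
The sid-1 siRNA excess over the wild-type mean, as a percentage of the meg-3/4 excess (vertical, log axis), against generation (horizontal); points are single libraries, and the line joins the means of 2. The mean passes 50.4% at F7 and 12.4% at F15, and F25 replicate 1, at -0.850%, cannot be drawn on the log axis.

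Ordered by mean level, meg-3/4 came highest, then the 9 descendant groups in the order of their generations, then the triple mutant, and wild type lowest. Most single steps in this order did not pass the test with adjustment over all features. F4 against F3 (log2 -0.11, limma adjusted p = 0.83), F5 against F4 (-0.08, 0.884), F6 against F5 (-0.06, 1.00) and F7 against F6 (-0.12, 1.00) did not pass the test, and the libraries of the last 3 of these pairs overlapped. F10 against F7 (log2 -0.48, adjusted p = 0.149), F20 against F15 (-0.51, 1.00) and F25 against F20 (-0.44, 0.744) did not overlap but missed the threshold over all features. Each of these steps had an SE of 0.13, with a limma unadjusted p of 0.00172, 0.00105 and 0.00349 in that order. They thus exceeded the spread for sid-1 alone. The step between F15 and F10 passed (log2 -0.88, limma adjusted p = 0.00296). The triple mutant and F25 overlapped (log2 -0.06, adjusted p = 0.832).

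Few features were called between neighbouring generations, with 2 libraries a group. The share called was 0.0451% for F4 against F3, 0.0902% for F5 against F4, 0.0451% for F6 against F5, 0.158% for F10 against F7, 1.09% for F15 against F10 and 0.0226% for F25 against F20. It was 18.1% for the triple mutant against F25. limma called 0% for F7 against F6, where 125 features had an unadjusted p below 0.05, and 0% for F20 against F15, where 321 did. edgeR and DESeq2 also called 0 features in each of these 2 steps.

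Replicates agreed closely for sid-1. The higher replicate was 1.02 times the lower at F3, the closest pair, and 1.30 times at F25, the widest, with a median ratio of 1.11 over the 12 groups. The coefficient of variation ran between 1.24% and 18.4% with a median of 7.41%. In 9 of the 12 groups the replicates' 95% counting intervals lay apart, so the spread between replicates exceeded counting error there. They overlapped in F3, F20 and wild type. Replicate 1 was the higher library in 6 of the 9 descendant groups. In a fit of the 18 descendant libraries with generation as a factor, replicate 2 minus replicate 1 was -0.03 on the log2 scale (95% interval -0.17 to 0.12, limma adjusted p = 0.923), where 2.07% of features were called. The 2 shallow libraries held 1649 sid-1 reads in F4 replicate 2 and 934 in F10 replicate 1. Without them the log2 change against wild type was 2.56 at F4 and 1.76 at F10, each still called.

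Among features with more small RNAs in meg-3/4, sid-1 ranked near the top for its level and the steepness of its fall. A total of 301 features were called at least log2 1 higher in meg-3/4 than in wild type. These were chosen on the meg-3/4 and wild-type libraries, so ranks are given as a description. sid-1 was the 19th highest of them for the change itself and the 6th highest for its normalized count in meg-3/4, but 25th of 299 per kilobase of exon. Its slope over F3 to F25 was the 11th steepest fall, at -0.130 against a median of -0.0184 log2 per generation. Its log2 change in the triple mutant against meg-3/4 was the 23rd lowest, at -3.21 against a median of -0.87. In the triple mutant against wild type sid-1 had a log2 change of 0.02, where the median of the 301 was 0.65.

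By the share of the meg-3/4 excess in the group means, sid-1 stood above most of these features at F3 and below most at F25. Many of them were not called in the descendants. Of the 301, 44.5% were called higher than wild type at F3 and 5.32% at F25. The 301 were chosen against the same wild-type libraries, which favours such calls, so both shares are only a description. A called fall over F3 to F25 was found for 43.5%. Over all features the shares called in either direction were 17.6%, 1.05% and 25%. The shares below thus include many features not told from wild type. At F3 it had 68.8% of its meg-3/4 excess, against a median of 32.5%. At F10 it had 32.9% against a median of 24.6%. At F25 it had 0.800%, ranking 204th, against a median of 9.04%.

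**Figure D3:**
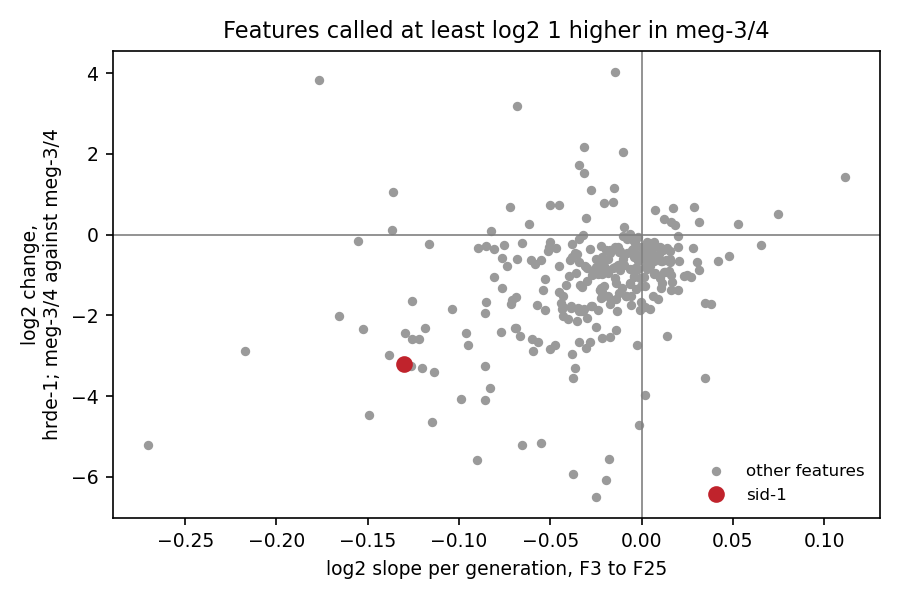
Log2 slope per generation over F3 to F25 (horizontal) and log2 change in the triple mutant against meg-3/4 (vertical) for the 301 features called at least log2 1 higher in meg-3/4; each point is 1 feature and sid-1 is the large one. sid-1, at -0.130 and -3.21, lies in the lower left, beyond the medians of -0.0184 and -0.87.

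The features whose small RNAs followed sid-1 most closely were ranked by Pearson's r of log2 values over the 24 libraries, among 4468 other features that averaged 50 normalized counts or more. The median r was 0.15, and 11 features reached 0.9. The libraries share the same groups and scaling factors, so r is a description and carries no p. The 10 highest were B0564.2 (r 0.969), C15F1.8 (0.954), W04A8.2 (0.940), F26D11.1 (0.935), bath-1 (0.935), gon-2 (0.927), plk-3 (0.925), B0205.1 (0.924), D2096.12 (0.922) and rde-11 (0.910). gon-2 encodes a TRPM cation channel needed for gonad development, plk-3 a Polo-like kinase, bath-1 a BATH-domain protein, and rde-11 a RING-finger protein of the RNAi pathway. The list depends on the measure, since ranking by Spearman's rho kept 4 of the 10, ranking over group means 3, and ranking over the descendants alone 5.

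These 10 differed from sid-1 in size, and some in where they ended. B0564.2 had means of 4168 normalized counts in meg-3/4, 2707 at F3, 518.0 at F10, 63.9 at F25 and 89.6 in wild type, so it was near its wild-type level at F25 after a steeper slope of -0.270. plk-3 had 6673 in meg-3/4, 4683 at F3, 3271 at F10, 1099 at F25 and 387.7 in wild type, and so its mean still lay above wild type at F25. C15F1.8 likewise had 258.6 at F25 and 131.9 in wild type. B0205.1 ended as sid-1 did, with a log2 change of 0.01 at F25 against wild type. rde-11 had 6657 in meg-3/4, 3388 at F3, 1002 at F10, 464.0 at F25 and 444.7 in wild type. Its level per kilobase of exon in meg-3/4, 4931, was close to that of sid-1, at 4376. D2096.12 moved much less, with a log2 change of 0.41 in meg-3/4 against wild type where sid-1 had 3.23. Its means were 176.8 in meg-3/4, 174.5 at F3, 179.7 at F10, 143.0 at F25 and 132.3 in wild type, so it had not fallen by F10, where sid-1 had. In the triple mutant F26D11.1 averaged 216.5 normalized counts, against 1635 in meg-3/4 and 48.9 in wild type, while W04A8.2 averaged 60.2, against 1638 in meg-3/4 and 151.9 in wild type.

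The nearest gene before sid-1 ran the other way. C04F5.9 is a protein-coding gene on the opposite strand, 760 bp before sid-1, and no annotated feature overlaps sid-1. Its small RNAs measured 88.2 and 91.4 normalized counts in the triple mutant, 19.9 and 20.6 in meg-3/4, and 103.0 and 108.0 in wild type. The meg-3/4 libraries lay far below both other groups, and the triple mutant lay just below wild type. Over the generations it had 19.2 and 18.2 at F3, 22.0 and 39.9 at F4, 26.8 and 23.1 at F5, 16.2 and 24.996 at F6, and 20.9 and 22.1 at F7. It then had 27.3 and 33.4 at F10, 34.6 and 48.7 at F15, 59.6 and 48.6 at F20, and 76.4 and 58.3 at F25. The level was thus low through F7 and climbed afterwards, and every descendant library stayed below both wild-type libraries.

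For C04F5.9 the log2 change was -2.13 in meg-3/4 against wild type (SE 0.24, limma adjusted p = 1.48e-06) and 1.91 in the triple mutant against meg-3/4 (adjusted p = 6.75e-06). The triple mutant against wild type gave -0.22 (adjusted p = 0.636). Over F3 to F25 the log2 slope was 0.0684 per generation (SE 0.00786, limma adjusted p = 2.06e-06). Against wild type it was lower at F3 (log2 -2.22) and through F15 (-1.26, limma adjusted p = 0.00323), a call that was lost without F15 replicate 1 (-1.04, adjusted p = 0.0595). At F20 the log2 change was -0.91 (adjusted p = 0.0526) and at F25 -0.62 (adjusted p = 0.361). Its r with sid-1 over the 24 libraries was -0.935, and 28 of the 8868 other features tested, 0.316%, were as low or lower. C04F5.9 rested on only 5 to 185 reads per library, far fewer than sid-1.

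**Figure D4:**
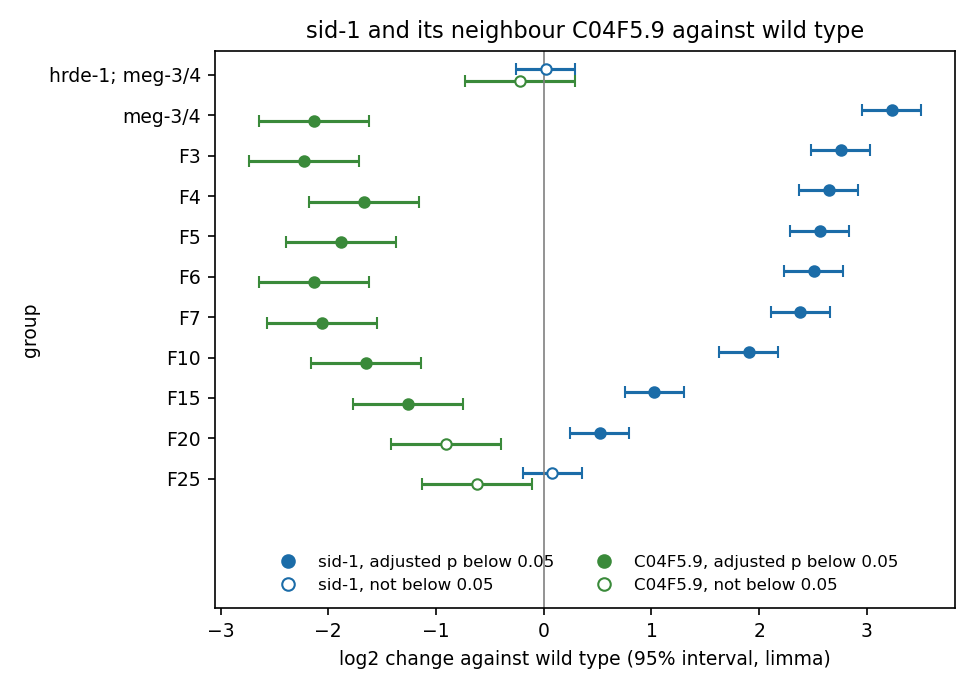
Log2 change against wild type (horizontal) of small RNAs against sid-1 and its neighbour C04F5.9 in each group (vertical), with 95% intervals from limma; filled points have an adjusted p below 0.05. In meg-3/4 sid-1 lies at 3.23 and C04F5.9 at -2.13. At F25 sid-1 lies at 0.08 and C04F5.9 at -0.62, and in the triple mutant they lie at 0.02 and -0.22.

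Of the other neighbours, 2 passed the filter. C04F5.8, 6215 bp before sid-1, ranged between 34.9 and 65.6 normalized counts over the 24 libraries, with a log2 change of 0.20 in meg-3/4 against wild type (limma adjusted p = 0.505). F14F9.4, 5824 bp after sid-1 on the same strand, had a mean of 6.36 normalized counts in the triple mutant, 3.19 in meg-3/4, 18.3 at F25 and 20.1 in wild type. F14F9.4 rested on very few reads. The meg-3/4 replicates held 4.42 and 1.96 normalized counts, where 1 read is worth 1.11 and 0.982. F14F9.4 reached the filter's 10 normalized counts only in F10 replicate 1 (21.9, at 5.47 per read) and in the F15, F20, F25 and wild-type libraries. It was thus tested only because it was high in later descendants and wild type. That choice favours a low value in meg-3/4 and a climb over the generations, so its tests are a description. Its log2 change in meg-3/4 against wild type was -1.60 (limma adjusted p = 0.0121), and this call was lost without meg-3/4 replicate 2 (adjusted p = 0.0966) or wild type replicate 2 (adjusted p = 0.127). Its log2 slope over F3 to F25, a climb that the filter favours, was 0.0798 per generation (SE 0.0145, limma adjusted p = 3.81e-04). Without 1 descendant library the slope was 0.0675 to 0.0921. It was lower than wild type at F3 (log2 -1.60, adjusted p = 0.0170), F4 (-1.88, 0.00533) and F5 (-1.67, 0.0126). Leaving out wild type replicate 2 ended all 3 of these calls (adjusted p 0.172 at F3, 0.0743 at F4 and 0.137 at F5). The F3 call was also lost without F3 replicate 2 (0.156), the F4 call without F4 replicate 2 (0.0778), and the F5 call without F5 replicate 1 (0.0541) or 2 (0.0779). Its log2 change in the triple mutant against meg-3/4 was 0.48 (adjusted p = 0.54), and its r with sid-1 was -0.715. ugt-63, F14F9.5 and F14F9.8 did not pass the filter and reached at most 3.32, 10.9 and 0.788 normalized counts in any library. F14F9.5 begins only 176 bp after sid-1 ends and on the same strand. It was at 0 in both meg-3/4 libraries and in both wild-type libraries. Its highest value was in F10 replicate 1, where 1 read is worth 5.47 normalized counts, so its values lay at the read floor.

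Other RNAi genes were read from a list of 40, ordered by role, of which 35 passed the filter. In meg-3/4 against wild type 2 of the 35 rose and 2 fell, with a median log2 change of 0.08 where all features had -0.01, and with 25.9% of features called. In the triple mutant against meg-3/4, where 19.2% of features were called, 2 rose and 5 fell (median -0.08, all features -0.01). These comparisons share the meg-3/4 libraries.

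Of the 6 genes listed under the transport and spreading of double-stranded RNA, 4 passed the filter. rsd-6 averaged 161.1 ± 8.41 normalized counts in meg-3/4 and 138.1 ± 1.27 in wild type, and rsd-2 66.4 ± 4.71 in meg-3/4 and 95.6 ± 1.46 in wild type (SD, n = 2 each). Per kilobase of exon in meg-3/4, rsd-6 had 62.9 and sid-1 4376. SID-2, which takes up double-stranded RNA from the gut lumen, and SID-5, an endosomal protein, did not pass the filter, with sid-2 at a mean of 1.78 and sid-5 at 1.22 normalized counts. Nor did the SID-1 paralogs, with chup-1 at 5.63 and Y37H2C.1 at 1.14. In meg-3/4 alone, chup-1 averaged 5.77 ± 1.22 and Y37H2C.1 1.04 ± 0.0879 (SD, n = 2 each). sid-3, a tyrosine kinase gene needed for efficient import, averaged 28.1 ± 1.52 normalized counts in the triple mutant and 13.4 ± 1.81 in meg-3/4 (SD, n = 2 each). It rose in that comparison (log2 0.85, limma adjusted p = 0.0338), a call lost without any 1 of the 4 libraries (adjusted p between 0.0751 and 0.184), with no filter (0.0635), with quantile normalization (0.0657) and with DESeq2 (0.0735). In meg-3/4 against wild type the log2 changes were -0.59 for sid-3 (adjusted p = 0.125), -0.50 for rsd-2 (0.0969), -1.11 for rsd-3 (0.0547) and 0.21 for rsd-6 (0.252).

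Of the 8 genes that process double-stranded RNA or target mRNA, rde-11 rose and rde-4 fell in meg-3/4. rde-11 had 6657 ± 358.6 normalized counts in meg-3/4 and 444.7 ± 11.2 in wild type (SD, n = 2 each), a log2 change of 3.89 (limma adjusted p = 3.54e-09). In the triple mutant it had 686.1 ± 11.5, a log2 change of -3.27 against meg-3/4 (adjusted p = 2.97e-08). It was the member of the list that behaved most like sid-1. rde-4, whose product binds double-stranded RNA for Dicer, had 200.9 ± 2.19 in meg-3/4 and 262.8 ± 3.30 in wild type (log2 -0.38, limma adjusted p = 0.0278). That call was lost without any 1 of the 4 libraries (adjusted p between 0.094 and 0.125) and with no filter (0.0997).

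Of the 11 genes of siRNA amplification, mut-16, whose product scaffolds the Mutator granule, rose in meg-3/4 and fell in the triple mutant. It averaged 198.5 ± 6.92 normalized counts in the triple mutant, 328.0 ± 19.5 in meg-3/4 and 225.0 ± 2.72 in wild type (SD, n = 2 each). The log2 change was 0.53 in meg-3/4 against wild type (limma adjusted p = 0.0106), and the call was lost without meg-3/4 replicate 1 (adjusted p = 0.0874), wild type replicate 1 (0.0518) or wild type replicate 2 (0.0644) and with equal library totals (log2 0.18, adjusted p = 0.455). In the triple mutant against meg-3/4 it was -0.71 (limma adjusted p = 0.0014), which equal library totals brought to -0.46 (adjusted p = 0.0602). The RNA-dependent RNA polymerase genes rrf-1 (log2 -0.46, adjusted p = 0.0202) and ego-1 (-0.29, 0.0268) also fell there. With equal library totals rrf-1 was -0.20 (adjusted p = 0.358) and ego-1 -0.04 (0.889), and neither passed with quantile normalization (0.0540 for rrf-1, 0.269 for ego-1) or with no filter (0.0698 for rrf-1, 0.0918 for ego-1). The rrf-1 call was lost without any 1 of the 4 libraries (adjusted p between 0.0661 and 0.125). The ego-1 call was lost without meg-3/4 replicate 1 (0.0745), meg-3/4 replicate 2 (0.143) or triple mutant replicate 1 (0.211), and with edgeR (0.0517).

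Of the 12 measured Argonaute and nuclear RNAi genes, nrde-1 fell in meg-3/4, with 111.0 ± 5.67 normalized counts in meg-3/4 and 170.3 ± 3.05 in wild type (SD, n = 2 each, log2 -0.60, limma adjusted p = 0.00487). NRDE-1 associates with chromatin in nuclear RNAi. In the triple mutant against meg-3/4, nrde-2, whose product acts with nuclear Argonautes, rose (log2 0.47, limma adjusted p = 0.00171), and hrde-1, the mutated gene itself, fell (log2 -0.89, adjusted p = 4.43e-05). siRNAs against these genes moved far less than those against sid-1, for which the same comparison gave -3.21.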

How the data were processed

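Small RNAs of 24 libraries were read from 1 deposited table. The authors made its signal values, here called normalized counts, with cutadapt, Bowtie, featureCounts and DESeq2, per the submitters' processing notes. Their versions, and the build, annotation and strand setting, are not stated in those notes. Multiplied by 1 size factor per library, the deposited values give back whole reads: all 386038 values above 0 (100%) came out whole within 0.01, and recomputed DESeq2 factors equalled them. Names and positions came from Ensembl release 115 (WBcel235), which matched 46364 of 46726 features, and the authors' build may differ. The counted strand was read from 28 pairs of a microRNA gene and a non-coding feature on the other strand. That feature was higher in 26, so reads were counted antisense to the annotated gene.

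A feature was tested if 2 or more libraries reached 10 normalized counts, which left 8869. The test was limma 3.58.1 under R 4.3.3, with its trend option, on log2(normalized count + 5). The 12 groups shared 1 fit with 12 residual degrees of freedom, two-sided, with Benjamini-Hochberg adjustment and a threshold of 0.05. A fold change on this scale understates the change of low features. Slopes were linear contrasts of the group means. Replicate numbers were compared in a fit of the 18 descendant libraries. edgeR 4.0.16 and DESeq2 1.42.0 on recovered reads, other scalings, filters, added numbers, a replicate block and leaving out libraries were alternatives. The fit was checked on simulated data. Intervals on reads cover counting error only.

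The members and lists were chosen with earlier results of these data known. Named were sid-1, the mutated genes, the 10 features most like sid-1, the 3 nearest on each side, and members of the RNAi list called in meg-3/4 against wild type or in the triple mutant against meg-3/4. The transport genes and paralogs are named besides, after their values were seen.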

Additional observations from a re-analysis of the deposited data

How the results depend on the processing

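Over 849 alternatives to 55 results, 770 kept direction and side of the threshold, 47 lost a call, 12 gained one, 15 changed sign and 5 values moved. The gain of sid-1 in meg-3/4, its loss in the triple mutant, the changes at F3 to F15 and the slopes over F3 to F25 and F7 to F20 kept their calls under every alternative run. At F20 the log2 change against wild type missed the threshold with no filter (0.519, adjusted p = 0.0538), equal library totals (0.321, 0.236) and quantile normalization (0.373, 0.159), and leaving out a library gave 0.468 to 0.570. At F25 it changed sign with equal totals (-0.0800) and quantile normalization (-0.0249), and ran between -0.106 and 0.269 without 1 library. F3 against meg-3/4 was -0.230 with equal totals (adjusted p = 0.425), -0.470 with only the groups compared (0.0821) and 0.151 with quantile normalization (0.649), and -0.505 to -0.436 without 1 library. The triple mutant against wild type was -0.0832 with equal totals and -0.0748 to 0.111 without 1 library. Replicate 2 against replicate 1 was 0.0458 with equal totals and -0.0752 to 0.00719 without 1 library. The slope over F3 to F7 passed with quantile normalization (-0.120, adjusted p = 0.0319). The sid-1 excess lost 50% in 3.80 generations with equal totals and 4.58 with TMM factors. The cause of these changes was not tested. Equal totals moved the median of all features by -0.316 in meg-3/4 against wild type. They also turned C04F5.8 (-0.121), rrf-1 (-0.237), ego-1 (-0.203) and nrde-2 (-0.265) in meg-3/4 against wild type. nrde-2 was -0.157 with quantile normalization and C04F5.8 ran between -0.0229 and 0.431 without 1 library. None of these was called. C04F5.9 at F20 passed under 6 alternatives.

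The main fit did not pair samples by replicate number. Deviations of same-numbered libraries correlated between -0.0999 and 0.665 over 66 pairs of groups, 37 of them over 0.1. Among the 9 descendant groups, on which the decay rests, 31 of 36 pairs were over 0.1, with a median of 0.313, so same-numbered descendant libraries did tend to deviate together. With a replicate block no sid-1 call changed (F20 against wild type 0.519, adjusted p = 0.0296, and F3 against meg-3/4 -0.470, 0.0214). The features called at F20 numbered 317 with the block and 213 without it.

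With 2 libraries a group, the F25 interval still allows a sid-1 level up to 1.28 times wild type, or 1.49 times without F25 replicate 1.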

Other observations

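Among strong correlations, more features ran against sid-1 than with it, although the median feature ran weakly with it. Of the 4468 features that averaged 50 normalized counts or more, 48 had a Pearson's r of -0.9 or below with sid-1 over the 24 libraries, and 11 had 0.9 or above. The lowest r was -0.971 and the highest 0.969, with a median of 0.15. These values describe libraries that share groups and scaling factors.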
